A study of Mus musculus with 28 samples.

Results

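The genes described here are Mrpl15, Lypla1, Gm37988 and Tcea1, 4 of 21755 protein-coding genes annotated on mouse chromosomes 1 to 19 and X. Their starts lie together in the widest H3K9me2 domain that was called in EHMT2-depleted mouse embryonic stem cells (mESCs) where control mESCs had no domain base, chr1:4785203-5010202 of mm10, 225 kb long. This stretch is called the gained segment below. The members were therefore chosen on the domain calls themselves, and their positions in the mESC sets are a description with no test.

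The study asked what the histone methyltransferase EHMT2 represses in pluripotent cells. All sorted samples came from the line EHMT2-dTAG-mcherry MERV-GFP of a BL6/129 hybrid strain, grown in serum with LIF, on fibroblast feeders by the study's methods, in which endogenous EHMT2 carries a degron and a reporter is driven by the MERVL retroelement. After 72 h with the solvent DMSO or the degrader dTAG, cells were sorted into GFP-low mESCs and GFP-high 2-cell-like cells (2CLCs), and each of these 4 conditions has 3 libraries of H3K9me2-bound chromatin and 3 of input. The series also holds bulk cells of the line EHMT2-dTAG-mcherry after 24 h in DMSO, with 2 libraries of each kind, for 28 libraries in all. The labels state that TTNBP, an agonist of retinoic acid receptors, was given in 2 replicates without saying which, whereas the study's methods describe it for sorted DMSO and dTAG cultures alike. Whether every replicate had the agonist is therefore not settled. The degron affects EHMT2 in every cell of a culture, DMSO cells carry the tagged allele too, the sorted cells came from 1 clone by the study's methods, and cell identity rests on the reporter sort. Whether feeder cells entered the GFP-low sort was not tested. No expression values were analysed here, so neither the loss of EHMT2 nor the identity of the sorted cells could be checked against marker genes.

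H3K9me2 is a mark of silent chromatin that EHMT2 and its partner EHMT1 place over broad stretches, often between active genes and around lineage genes that stem cells keep off. Expressed housekeeping genes usually sit in the gaps between such stretches. Mrpl15 encodes a protein of the large subunit of the mitochondrial ribosome, Lypla1 encodes an acyl-protein thioesterase that removes palmitate from proteins, and Tcea1 encodes the elongation factor TFIIS, which restarts stalled RNA polymerase II.

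Each condition has a single deposited list of domain positions with no values per library. A domain was grown from 5 kb bins with a high ratio of immunoprecipitated to input chromatin until the ratio became low. A domain is thus a call and not a level of the mark, and a gene that gained one may have been just under or far under the limit before. The limits were percentiles of the ratio, and whether they were set for each list on its own is not stated. If they were, a domain in dTAG is high relative to the rest of that list's genome, and it can be called where the mark itself did not rise or fell. The study reports that EHMT2 depletion lowered H3K9me2 globally in both sorted cell states. Levels of the mark at the members were not analysed here. Gained is used here only in the sense of a call that DMSO lacked. Spread between the 3 replicates could not be computed, library depth behind the calls is unknown, and no difference between sets was tested. A 5th list has a name that gives neither cell state nor treatment. It is called the unnamed set, belongs to no group and is described beside the 4 sorted sets. Bulk mESC DMSO is the group with no list named for it, and whether the unnamed set comes from those cells is not given in the sources used here.

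The gained segment began inside Mrpl15 and ended inside Rgs20, in intronic sequence at either end. The 120 reference bases centred on its borders, and on the right border of the narrower 2CLC dTAG domain over the gene starts, are shown because they are where the calls changed state. They are read 5′ to 3′ on the plus strand of mm10, with CpG dinucleotides in capitals.
Left border in mESC dTAG, chr1:4785143-4785262, in an intron of Mrpl15: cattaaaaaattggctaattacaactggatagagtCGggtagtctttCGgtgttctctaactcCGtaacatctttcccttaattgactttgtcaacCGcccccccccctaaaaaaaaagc
Right border in mESC dTAG, chr1:5010143-5010262, in an intron of Rgs20: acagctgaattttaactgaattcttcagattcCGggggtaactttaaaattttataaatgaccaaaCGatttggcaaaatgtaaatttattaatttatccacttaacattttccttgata
Right border in 2CLC dTAG, chr1:4875143-4875262, in introns of Tcea1 and Gm37988: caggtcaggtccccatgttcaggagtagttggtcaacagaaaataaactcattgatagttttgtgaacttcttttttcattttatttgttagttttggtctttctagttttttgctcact
The left mESC window held 4 CpGs at 41.7% GC, the right mESC window 2 CpGs at 27.5% GC, and the 2CLC window 0 CpGs at 34.2% GC. Borders lie on a grid of 5 kb, so the true change in signal may sit several kilobases from these bases.

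The members form a compact block. Mrpl15 (ENSMUSG00000033845.13, chr1:4773206-4785739, minus strand) is 12.5 kb long and starts at its right end, so that only its first 537 bases fall in the gained segment. Lypla1 (ENSMUSG00000025903.14, chr1:4807788-4848410, plus strand) is 40.6 kb long and starts 22049 bp from the Mrpl15 start. Tcea1 (ENSMUSG00000033813.15, chr1:4857814-4897909, plus strand) is 40.1 kb long and starts 9404 bp after Lypla1 ends. Mrpl15 and Lypla1 thus point away from each other, and Lypla1 and Tcea1 run in the same direction.

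Gm37988 (ENSMUSG00000104217.1, chr1:4807892-4886770, plus strand) is not a separate locus in these data. It has 1 annotated transcript, classed as a target of nonsense-mediated decay, and starts 104 bp after Lypla1. Of its 825 exon bases, 629 lie in exons of Lypla1 and 196 in exons of Tcea1, which together make up the whole transcript. Its gene body spans 40519 bp of Lypla1 and 28957 bp of Tcea1. A domain over the Lypla1 start therefore also covers the Gm37988 start, and the 4 member starts stand for 3 separate positions. In every set these positions lay in the same gap or the same domain, so they are not independent of each other.

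**Figure D1:**
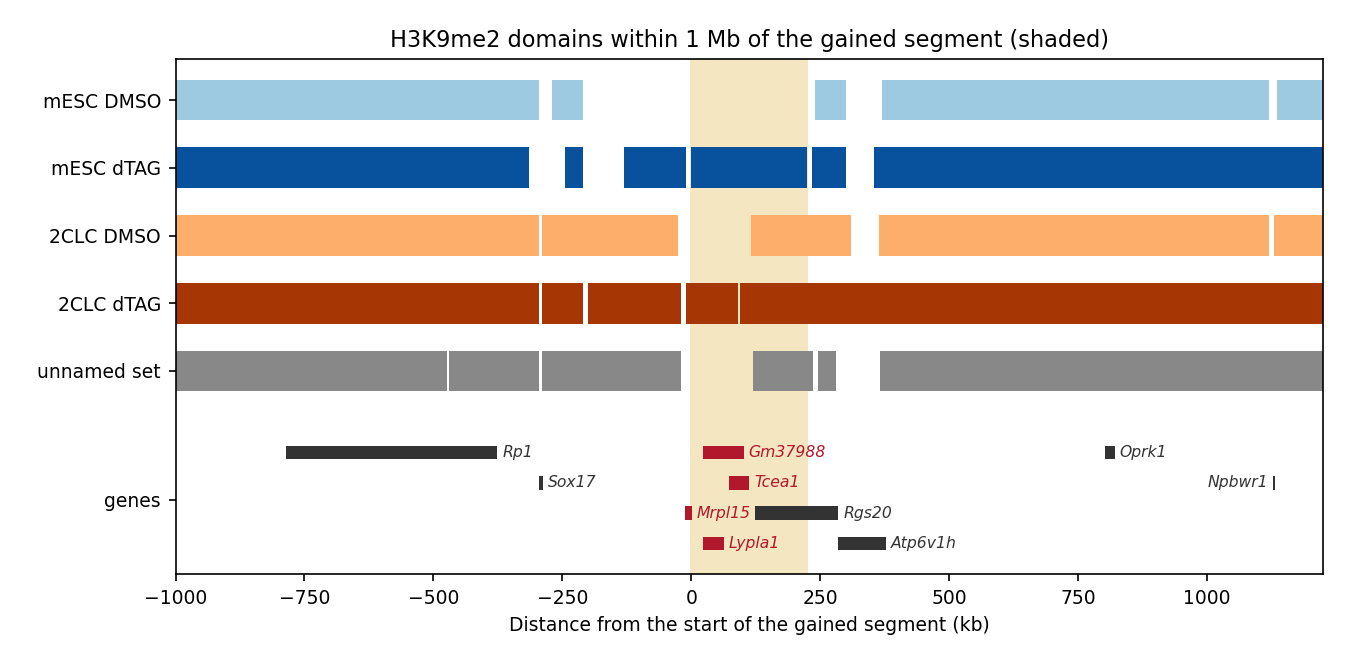
Domains (coloured bars) in the 4 sorted sets and the unnamed set, and protein-coding genes (members red, others black), against distance in kb from the start of the gained segment, which is shaded. The mESC DMSO row is empty across a gap of 450 kb, and the mESC dTAG row fills the shaded segment. Both 2CLC rows and the unnamed row hold domains in its right part. In its left part of 115 kb, the 2CLC dTAG row covers 95.7% and the 2CLC DMSO and unnamed rows 0%.

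In mESC DMSO, all 4 starts lay deep in a gap between domains. The gap ran from 4575204 to 5025202, 450 kb, and 649 of the 4303 gaps of that set, or 15.1%, were at least as wide, against a median gap of 45 kb. The distances to the nearest domain were 211 kb for Mrpl15, 217 kb for Lypla1, 217 kb for Gm37988 and 167 kb for Tcea1. No base of any member was in a domain of this set.

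In mESC dTAG, 1 domain covered Lypla1, Gm37988 and Tcea1 from end to end. It reached from 4785203 to 5010202 and held the starts 22.6 kb, 22.7 kb and 72.6 kb inside its nearest border, in that order. The Mrpl15 start lay 0.537 kb inside, which is less than 1 bin. Gaps of 10 kb separated this domain from a domain of 120 kb on its left (4655203 to 4775202) and a domain of 65 kb on its right (5020203 to 5085202). Neither the left neighbour nor the gained segment shared a base with mESC DMSO domains, and together the mESC dTAG domains took up 77.8% of the former gap of 450 kb. Of the same stretch, 68.9% was in domains in 2CLC DMSO, 94.4% in 2CLC dTAG and 67.9% in the unnamed set.

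Mrpl15 was the member least covered in mESC dTAG. Of its gene body, 20.2% lay in domains, 1997 bp at its 3′ end in the left neighbour and 537 bp at its start in the gained segment, and the 10 kb gap took up the middle. Of its exon bases, 25.5% were in domains. Lypla1, Gm37988 and Tcea1 were at 100% by gene body. The inclusion of Mrpl15 thus rests on the edge bin of the domain, while the others do not depend on the position of a border.

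In 2CLC DMSO, the gap around the members was narrower, 140 kb from 4760203 to 4900202. Of the 4226 gaps in that set, 1416, or 33.5%, were at least as wide, and the median was 50 kb. The starts were 25.5 kb (Mrpl15), 47.6 kb (Lypla1), 47.7 kb (Gm37988) and 42.4 kb (Tcea1) from the nearest domain. All 4 gene bodies were free of domains, and the domain on the right began 2.29 kb after the end of Tcea1. This gap therefore held the members and little else.

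In 2CLC dTAG, all 4 starts were inside domains again. A domain of 100 kb (4775203 to 4875202) held them 10.5 kb (Mrpl15), 32.6 kb (Lypla1), 32.7 kb (Gm37988) and 17.4 kb (Tcea1) from its nearest border. Next to it, after a gap of 1 bin that fell inside Tcea1 and Gm37988, came a domain of 1900 kb (4880203 to 6780200). The gene bodies were covered by 84.1% for Mrpl15, 100% for Lypla1, 93.7% for Gm37988 and 87.5% for Tcea1. Mrpl15 was covered more fully in 2CLC dTAG than in mESC dTAG, and Gm37988 and Tcea1 slightly less, because of that single bin.

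The unnamed set resembled 2CLC DMSO at the members. They lay in a gap of 140 kb (4765714 to 4905713) with starts 20 kb (Mrpl15), 42.1 kb (Lypla1), 42.2 kb (Gm37988) and 47.9 kb (Tcea1) from a domain and no base of a gene body inside one. The choice of annotation changed these states for 1 transcript start only. Of the 16 transcript starts of the members, 0 were in domains in mESC DMSO, 2CLC DMSO and the unnamed set, 15 in mESC dTAG and 16 in 2CLC dTAG, and the 1 exception was an Mrpl15 transcript. RefSeq starts, which lay 11 bp (Mrpl15), 35 bp (Lypla1) and 120 bp (Tcea1) away, gave the same states. No RefSeq start was compared for Gm37988.

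**Figure D2:**
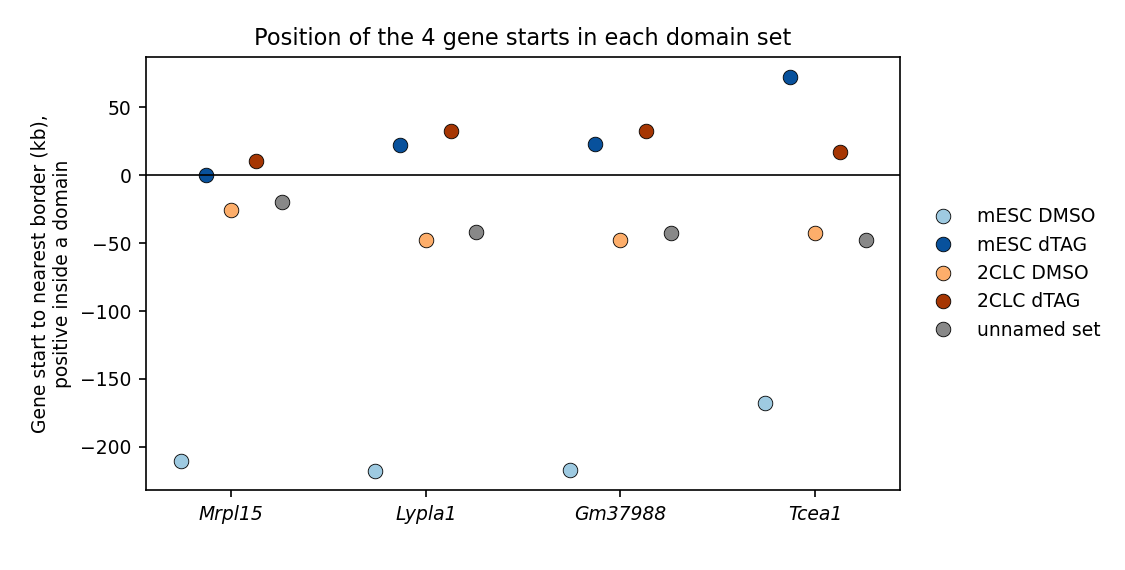
Distance in kb from each member's start to the nearest domain border, positive inside a domain and negative outside, with 1 point for each of the 5 sets. Each dTAG point is above 0 and each DMSO and unnamed point below 0, and the mESC dTAG point of Mrpl15 is at 0.537 kb.

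The members were alike in state, outside in both DMSO sets and inside in both dTAG sets, and differed in depth. The order of the start's depth inside mESC dTAG domains was Tcea1, Gm37988, Lypla1 and Mrpl15. In 2CLC dTAG it was Gm37988, Lypla1, Tcea1 and Mrpl15, so Mrpl15 came last in both. With 1 list per condition no neighbours in these orders can be called different, and the 0.1 kb between Lypla1 and Gm37988 is only the distance between their starts.

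**Figure D3:**
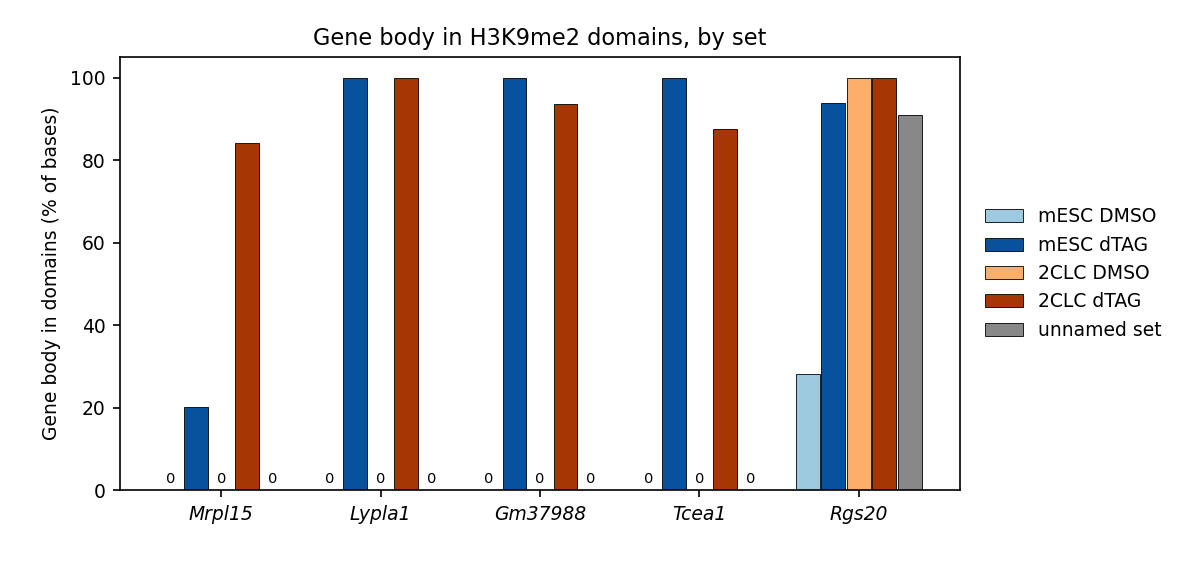
Share of each gene body in domains, in percent of bases, for the 4 members and the neighbouring gene Rgs20 in the 5 sets, with zeros written out. The members are at 0 in both DMSO sets and the unnamed set, whereas Rgs20 has 28.1% in mESC DMSO and 100% in 2CLC DMSO.

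These states were then read against all genes. Of 21755 protein-coding starts, 22.3% lay in domains with DMSO and 23.6% with dTAG in mESCs, 23.2% and 26.5% in 2CLCs, and 30.0% in the unnamed set, where the members had 0, 4, 0, 4 and 0 of 4. In mESCs, 1375 of 21755 protein-coding starts, or 6.32%, were outside domains in DMSO and inside in dTAG, and 1105, or 5.08%, went the other way. The members entered by the way they were chosen, so nothing is read from 4 of 4 here. In 2CLCs, 1637 starts, or 7.52%, entered and 924, or 4.25%, left. The 2CLC calls were known when the members were chosen, so nothing is read from 4 of 4 there either. Among starts outside DMSO domains, as the members were, 8.14% entered in mESCs and 9.80% in 2CLCs. Of the 592 starts that entered in both cell states, which is 2.72% of all starts, 43.1% of those that entered in mESCs and 36.2% of those in 2CLCs, 427 were also outside the unnamed set's domains, 1.96% of all. The 4 members belong to these 427. As they shared a single gap or a single domain in every set, they are not separate cases in any of these counts.

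The depth of the members inside the domain was set beside that of all starts that entered in mESCs. Over the 1375, the median depth inside the domain was 12.1 kb with quartiles of 4.18 kb and 26.6 kb, and 28.7% lay within 1 bin of a border, as Mrpl15 did. Mrpl15, at 0.537 kb, was below the lower quartile, Lypla1 and Gm37988 were between the median and the upper quartile, and Tcea1, at 72.6 kb, was above the upper quartile. By gene body, the 1375 had a median of 93.7% in mESC dTAG domains with a lower quartile of 30.1%, and 34.0% of them had under 50% of the body inside. Mrpl15, at 20.2%, was again below the lower quartile.

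The gained segment itself fell into a left and a right part. The left part, 115 kb from 4785203 to 4900202 or 51.1% of the segment, held all 4 member starts and was in domains by 0% in DMSO and 100% in dTAG for mESCs, by 0% in DMSO and 95.7% in dTAG for 2CLCs, and by 0% in the unnamed set. The right part, 110 kb from 4900203 to 5010202, held 0 protein-coding starts and was in domains by 0%, 100%, 100%, 100% and 95% in the same order. In the right part mESC DMSO was thus the set that stood apart, while in the left part the dTAG sets differed from the DMSO sets in both cell states. Over the whole segment the values were 0%, 100%, 48.9%, 97.8% and 46.4%. Of its 45 bins, 22 were in domains in both dTAG sets only, 21 in every set but mESC DMSO, 1 in mESC dTAG only and 1 in the sorted sets other than mESC DMSO.

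The right part lies for the most part in Rgs20, which encodes a regulator of G protein signalling and starts beyond the segment, 60.1 kb from its right border. Of the segment's bases, 101 kb were in Rgs20 and 90.7 kb in the members. In mESCs the Rgs20 body was in domains by 28.1% with DMSO and 93.8% with dTAG, in 2CLCs by 100% with either, and in the unnamed set by 90.9%. Its start was inside a domain in all 4 sorted sets, by 14.9 kb, 14.9 kb, 24.9 kb and 190 kb, and 4.57 kb outside in the unnamed set. Rgs20 and the members thus share the gained mESC domain without sharing the change at the start.

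The other genes within 1 Mb followed other patterns. The start of Atp6v1h, a subunit of the vacuolar proton pump, lies 267 bp from that of Rgs20 and was inside a domain in the 4 sorted sets as well. Rp1, a microtubule-associated protein of photoreceptors, and Oprk1, the kappa opioid receptor, had starts inside domains in all 5 sets. Sox17, a transcription factor of endoderm, had its start outside domains in mESCs, by 7.15 kb with DMSO and 27.2 kb with dTAG, and inside in 2CLCs, by 2.15 kb with either, and in the unnamed set, by 1.64 kb. The state of its start, inside or outside, differed between the cell states and not between treatments, while its distance in mESCs was larger with dTAG. In 2CLCs the start was inside by less than 1 bin, and no difference was tested.

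Npbwr1, a receptor for neuropeptides B and W, was the only other gene of the 10 in the window that entered in mESCs. Its start was 2.8 kb outside in mESC DMSO, 478 kb inside in mESC dTAG, 2.2 kb inside in 2CLC DMSO, 863 kb inside in 2CLC dTAG and 213 kb inside in the unnamed set. It lay in a gap of 15 kb between domains of 750 kb and 290 kb in mESC DMSO, and mESC dTAG had a single domain of 1255 kb there. The members came out of a gap of 450 kb and Npbwr1 out of a gap of 15 kb. Around the segment as a whole, domains covered 74.8% of the 2225 kb window with DMSO and 89.9% with dTAG in mESCs, 90.6% and 98.7% in 2CLCs, and 89.0% in the unnamed set. Over chromosomes 1 to 19 and X the direction was the opposite. There domains covered 1413 Mb with DMSO and 1220 Mb with dTAG in mESCs, and 1357 Mb and 1275 Mb in 2CLCs. Domains were more numerous with dTAG, 4323 and 7312 in mESCs and 4246 and 8820 in 2CLCs. Their median width fell from 140 kb to 60 kb in mESCs and from 115 kb to 60 kb in 2CLCs.

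Genes that share a role with the members were placed next, from lists chosen with earlier results of these data known. Of 78 mitochondrial ribosomal protein genes, 7 starts entered in mESCs and 1 left, 5 entered in 2CLCs and 2 left, and 3 entered in both, Mrpl15 among them. The lists' shares are to be read against the 6.32% and 7.52% of all starts that entered. Of these 78 genes, 66 or 84.6% were outside domains in all 4 sorted sets, against 65.8% of all protein-coding genes. Mrpl15 was thus 1 of few genes of its family with a call in any sorted set. The other genes of the family that entered in both cell states were Mrps2 and Mrps28, named after their values were seen, at 0.127 kb and 5.58 kb inside mESC dTAG domains.

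Of 30 transcription elongation genes, 2 entered in mESCs and 0 left, and 6 entered in 2CLCs and 0 left. With 1 of the 30 in DMSO domains of either cell state, hardly any could leave. The closer background is therefore that of starts outside DMSO domains, of which 8.14% entered in mESCs and 9.80% in 2CLCs. The list's counts were not tested against it. Those in mESCs were Tcea1 and Nelfa, a subunit of the negative elongation factor NELF, and both also entered in 2CLCs. Nelfa was 20.2 kb outside in mESC DMSO, 35.2 kb inside in mESC dTAG, 74.8 kb outside in 2CLC DMSO and 59.8 kb inside in 2CLC dTAG. In 2CLCs the others were Eloc, a subunit of elongin, Cdc73, a subunit of the PAF1 complex, Ell3, a member of the ELL family, and Elof1, a further elongation factor. Their starts were 76.9 kb, 32.9 kb, 6.46 kb and 5.58 kb inside 2CLC dTAG domains. In all, 23 of the 30, or 76.7%, were outside domains in the 4 sorted sets.

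Of 9 protein depalmitoylation genes, Lypla1 was the 1 that entered in mESCs, and 3 entered in 2CLCs. The others in 2CLCs were Ppt1, a lysosomal thioesterase, at 8.21 kb inside, and Abhd17c, a depalmitoylating hydrolase, at 2.34 kb inside. None of the 9 was in a DMSO domain of either cell state, so none could leave. Among all starts outside DMSO domains, 8.14% entered in mESCs and 9.80% in 2CLCs. With 9 genes, 1 gene is a larger share than either, so the counts in both cell states say little about the list.

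The genes whose starts sat most like those of the members were sought over the 4 sorted sets, by the Euclidean distance between signed start-to-border distances limited to 200 kb. The median of the members in mESC DMSO was 200 kb outside (the limit), in mESC dTAG 22.6 kb inside, in 2CLC DMSO 45 kb outside and in 2CLC dTAG 25 kb inside. Among 21745 genes outside the window, the nearest were Hist1h4m at 9.68 kb, Hist1h2ao at 10.7 kb and Hist1h2bq at 11 kb, which encode core histones, 1500009L16Rik at 24.4 kb and the odorant receptor gene Olfr11 at 24.8 kb. Hist1h4m, for example, was 13.8 kb inside in mESC dTAG, 46.2 kb outside in 2CLC DMSO and 28.8 kb inside in 2CLC dTAG. The histone genes and Olfr11 lie near each other on chromosome 13 and are not independent matches. The members themselves were 8.03 kb (Lypla1), 8.16 kb (Gm37988), 32.8 kb (Mrpl15) and 60.2 kb (Tcea1) from their own median, so Mrpl15 and Tcea1 were farther from it than these 5 genes.

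As the segment was picked for its width among gained mESC domains, the next in width are given for scale. They measured 175 kb (chr5:149641095-149816094, with the start of B3glct), 175 kb (chr1:58560132-58735130, with Fam126b, Ndufb3, Als2cr12 and Cflar), 175 kb (with Lyzl1) and 170 kb (chr5:127866124-128036123, with no protein-coding start). Their shares in 2CLC DMSO domains were 0%, 0%, 14.3% and 0%, and in 2CLC dTAG domains 42.9%, 74.3%, 31.4% and 17.6%. The gained segment, at 48.9% and 97.8%, was higher than these 4 in both 2CLC sets. In the unnamed set they were at 33.8%, 79.7%, 97.1% and 97.1%, so that the segment, at 46.4%, was above 1 of the 4. Nor does it lead among all gained mESC domains in the 2CLC sets, since the 8th in width, 145 kb on chromosome 12 and named after its values were seen, was at 100% in both. Of the 1635 gained mESC domains, 23 or 1.41% held at least 4 protein-coding starts and 1122 or 68.6% held 0, with 13 as the highest number.

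In GC and CpG content the segment was close to the average of chromosome 1. It had a GC content of 40.4%, 0.808 CpGs per 100 bases and 40.5% soft-masked bases, which mark repeats, against 41.1%, 0.77 and 34.6% on the chromosome. The flank of 1 Mb on its left had 39.7% GC, 0.595 CpGs per 100 bases and 43.6% soft-masked bases. The flank on its right had 39.4%, 0.577 and 51.2%, so the segment was richer in CpGs than either flank and less soft-masked. The left part, with the genes, had 0.954 CpGs per 100 bases and the right part 0.655. Runs of 50 bases found more than once on the same strand of the chromosome started at 4.05% of positions in the left part. The share was 6.96% in the right part and 7.11% over chromosome 1. In the left and right flanks it was 8.2% and 12%. Inverted copies were not counted.

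CpGs were concentrated at the members' starts. The bin with the Tcea1 start held 136 CpGs, the bin with the Lypla1 and Gm37988 starts 131 and the bin with the Mrpl15 start 99, and these ranked 1, 2 and 3 of the 45 bins. The other 42 bins held 15 to 76 CpGs, with a median of 33.5. All 3 of these bins were called inside domains in both dTAG sets. Just beyond the right border, the gap in mESC dTAG ended in a bin with 137 CpGs.

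**Figure D4:**
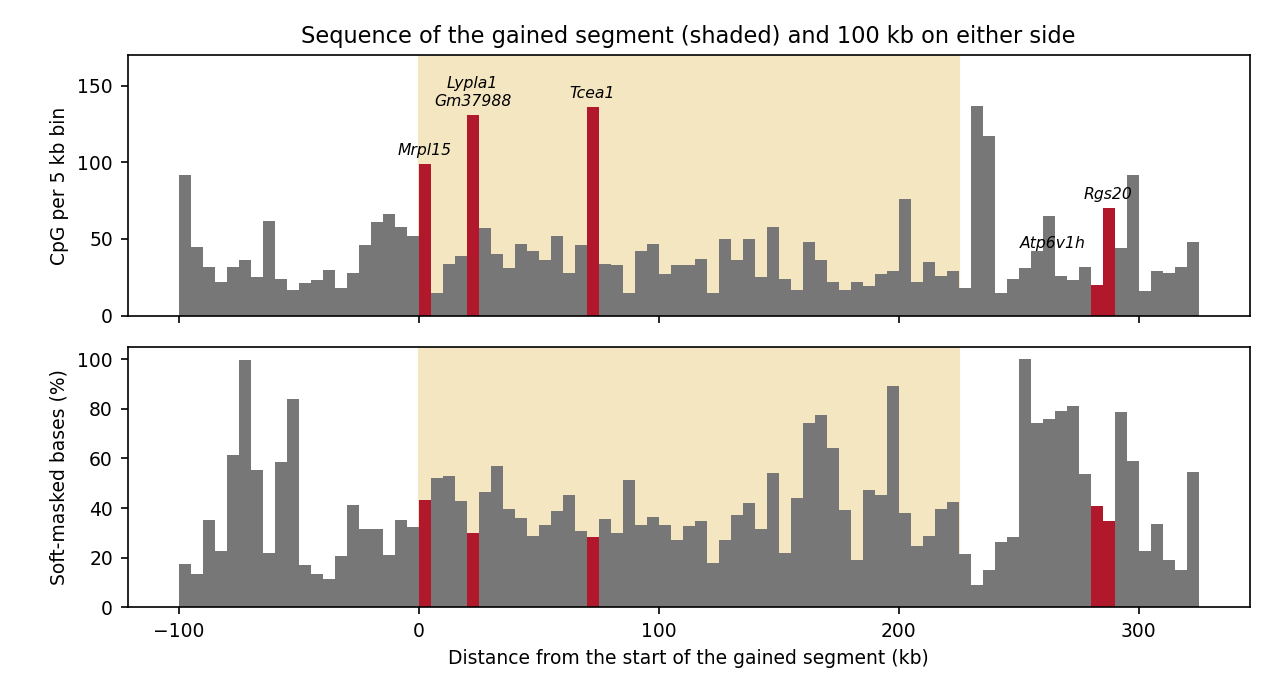
Number of CpG dinucleotides (top) and soft-masked bases in percent (bottom) for each 5 kb bin, against distance in kb from the start of the gained segment (shaded), with bins that hold a protein-coding start in red. The 3 red bins in the shaded area reach 99, 131 and 136 CpGs, and no other bin there exceeds 76.

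Compared with bins elsewhere, the median bin of the segment lay, in GC and CpG content, between those that stayed in mESC domains and those in neither set. Its median GC content was 40.5%, against 38.8% in kept bins, 42.3% in the other gained bins, 41.1% in lost bins and 44.7% in bins of neither set. The median soft-masked share was 38.0% in the segment and 32.2% in the other gained bins. It was 36.3% in kept bins, 22.6% in lost bins and 23.9% in bins of neither set. Median CpGs per 100 bases were 0.68 in the segment, 0.8 in other gained bins and 0.5 in kept bins. In lost bins the median was 0.66, the closest to the segment, and in bins of neither set it was 1. Bins of 1 stretch are not independent, and these are descriptions.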

How the data were processed

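H3K9me2 was profiled by ULI-NChIP, a native immunoprecipitation for few cells, with antibody ab1220. The authors deposited domain positions (chromosome, start, end; the score column is 0 throughout). According to the submitters' notes and the study's methods, reads were aligned to mm10 with STAR 2.7.10 keeping multiply matching reads, duplicates were removed with Picard 2.26.0, coverage was scaled with deepTools 3.5.1, and domains were called on the log2 ratio to input in 5 kb steps. Whether libraries were pooled is not given in the sources used here. Domain length follows these limits, and multiply matching reads can extend calls over repeats.

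The gene start was the 5′ end in GENCODE M21, placed in each of 5 sets with Python 3.11.15 and numpy 2.4.6 and checked on simulated domains. Distances run to the nearest border. Sequence came from GRCm38.p6. Members and lists were chosen with earlier results of these data known. Genes named were the members, all protein-coding genes within 1 Mb, the 5 most alike, those in the 5 widest gained mESC domains, and moved list genes where a list had at most 8. Motif counts planned for promoters were not analysed here. Depth per library is unknown, and no test was made. Alternatives were domain width, gap joining, border shifts, body share, all genes and the unnamed set as control.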

Additional observations from a re-analysis of the deposited data

Results flagged for a closer look

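The unnamed set, which belongs to no group, had domains over 46.4% of the gained segment, where mESC DMSO had 0%. The member starts were outside its domains, and its calls in the segment lay in the right part, most of which is Rgs20. Its cell state and treatment are not known, and whether it comes from the bulk mESC DMSO cells, the group with no set named for it, is not given in the sources used here. Set against it in place of mESC DMSO, 46.4% of the segment, nearly all of the right part, would not count as gained, while the member starts would. The difference from mESC DMSO was not tested.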

How the results depend on the processing

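No paired analysis was possible because the domain sets hold no values per replicate, and leaving out a replicate was not possible for the same reason. Over 12 results and 72 alternative values, 68 stayed within the limits set for them, which were 1.5 times the reported value for a count and, for a share of the segment, its exact 95% binomial interval over 45 bins. These limits are wide for counts and narrow for shares near 100%, so a loss of 1 of 4 members lies within them. The interval treats neighbouring bins as independent, which they are not, so it is a working limit and measures no spread. The values for the members and the segment start from calls that chose them in mESCs and were known in 2CLCs. Their staying within the limits is therefore no support for those calls. The share of the gained segment in 2CLC dTAG domains went from 97.8% to 100% when gaps of at most 10 kb were joined, and also to 100% when domains were extended by 5 kb at either end, both of which close the bin inside Tcea1. With all 53843 annotated genes in place of 21755 protein-coding genes, 3272 starts entered in mESCs and 4197 in 2CLCs, because more genes were counted. With domains shortened by 5 kb at either end, or with at least 50% of the gene body required, 3 of 4 members entered in mESCs, Mrpl15 being the exception. The unnamed set in place of mESC DMSO gave 4 of 4 members and 1356 starts in all. Over the alternatives that kept protein-coding genes, 1012 to 1497 starts entered in mESCs and 1116 to 1942 in 2CLCs. Unknown depth and single calls per condition limit every statement.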
